A study of Rattus norvegicus with 29 samples.

Results

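The vessel microRNAs miR-126, miR-143 and miR-145 were followed in rat plasma. Their rows were taken by name alone: every row of the count table whose name had the stem miR-126a, miR-126b, miR-143 or miR-145, with either arm of the hairpin, was taken, which gave 7 of the 754 miRNAs listed. The rows were rno-miR-126a-3p, rno-miR-126a-5p, rno-miR-126b, rno-miR-143-3p, rno-miR-143-5p, rno-miR-145-5p and rno-miR-145-3p, given below without the species prefix, and the rule that picked the rows used no measured value, although the families themselves were chosen with earlier results of these data known.

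Small RNA was sequenced from tail vein plasma of 29 adult male Sprague-Dawley rats, drawn 48 h after either a lateral fluid-percussion injury (TBI, a fluid pulse onto the exposed dura) or a sham operation, in which the surgery was done without the impact. All rats were anesthetized with isoflurane. The rats came from the University of Eastern Finland (UEF, 4 sham, 4 TBI−, 4 TBI+), Monash University (3 sham, 3 TBI−, 2 TBI+) and the University of California, Los Angeles (UCLA, 3 sham, 3 TBI−, 3 TBI+). TBI+ rats, labelled TBIE, had epilepsy in 4 weeks of video-EEG during month 7 after injury, and TBI− rats, labelled TBIN, did not, so that the 19 injured rats were divided by an outcome recorded long after the plasma was drawn. Each sample was a separate rat. The paper gives buprenorphine as the analgesic at UEF and Monash and flunixin meglumine at UCLA. At UCLA chow with an antibiotic was also given after injury.

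miR-126 is made from an intron of Egfl7, a gene of endothelial cells, and is known for keeping the endothelium responsive to VEGF and for holding back adhesion molecules. miR-143 and miR-145 are cut from a shared transcript of vascular smooth muscle, Carmn, and are known for keeping smooth muscle in its contractile state. Each hairpin gives a 5p and a 3p strand, of which usually one is loaded into the silencing complex in excess, and the bases near the 5′ end of the loaded strand, the seed, select the targets. In plasma these miRNAs are carried by vesicles, lipoproteins and protein complexes, and platelets also hold miR-126.

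All 7 rows matched a mature sequence in RefSeq (GRCr8 assembly), against 674 of the 754 miRNAs in the table. The sequences are printed because the 7 strands differ in their seeds and could not be mistaken by seed for each other or for another matched miRNA. The unmatched miRNAs of the table were not compared. The seed, bases 2 to 8 from the 5′ end, is in capitals.
miR-126a-3p: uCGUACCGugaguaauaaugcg
miR-126a-5p: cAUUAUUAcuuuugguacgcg
miR-126b: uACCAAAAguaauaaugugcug
miR-143-3p: uGAGAUGAagcacuguagcuca
miR-143-5p: gGUGCAGUgcugcaucucugg
miR-145-5p: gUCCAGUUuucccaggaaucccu
miR-145-3p: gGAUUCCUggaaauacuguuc
No seed occurred in more than 1 of the 7, and 0 other matched miRNAs of the table had any of them.

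On GRCr8 miR-126a-3p lay at chr3:29813219-29813240 and miR-126a-5p at chr3:29813182-29813202, both on the plus strand inside the span of Egfl7. miR-126b lay at chr3:29813177-29813198 on the minus strand, across the locus from miR-126a-5p, and was complementary to it over an unbroken run of 17 bases. miR-143-3p (chr18:57371373-57371394) and miR-143-5p (chr18:57371408-57371428) were on the minus strand of the same chromosome as miR-145-5p (chr18:57370033-57370055) and miR-145-3p (chr18:57369997-57370017). The miR-143 and miR-145 hairpins were 1278 bases apart, both within Carmn. The reads themselves had been aligned to the older build Rnor_6.0, so these positions locate the miRNAs and were not used for counting.

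The miRNA counts of a rat summed to between 1162307 and 5223469 (median 2713557), with site medians of 2982653.5 at UEF, 2033040.0 at Monash and 2309929.0 at UCLA. Levels are given as CPM, the usual unit of counts relative to library size, after trimmed mean of M-values (TMM) scaling, which sets each library by the bulk of its miRNAs. UEF sham rat 3 stood apart, with the highest total and a TMM factor of 0.333 against a median of 1.06 over the 29 rats, and its summed CPM of the 3 liver miRNAs was 1737210, where a sum above the library size is possible because CPM is scaled by that factor. Values of the members for the injury that moved without it are given both ways.

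Both strands of miR-126a and the dominant strands of miR-143 and miR-145 were among the abundant miRNAs of plasma. miR-143-3p held 1.16% of all miRNA counts on average (rank 17 of 754), miR-126a-3p 0.800% (rank 24), miR-126a-5p 0.379% (rank 39) and miR-145-5p 0.254% (rank 47). The other strands were rarer: miR-143-5p ranked 162, miR-145-3p 256 and miR-126b 748. A ranking of counts compares different molecules only roughly, since ligation into the library can depend on the sequence. All members but miR-126b had counts in every rat.

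The 3p strand of miR-126a exceeded the 5p strand in 29 of 29 rats, by a median of 2.21 times (range 1.04 to 3.15), so that both strands were abundant. miR-143 and miR-145 were far more one-sided. The counts of miR-143-3p were a median of 80.3 times those of miR-143-5p (29.2 to 138), and miR-145-5p was a median of 36.1 times miR-145-3p (18.6 to 91.9). Between the families the dominant strands were closer, with miR-143-3p a median of 4.67 times miR-145-5p (1.85 to 10.2), although both come from the same transcript.

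miR-126b, the strand from the opposite side of the miR-126a locus, was almost absent. Its counts ran from 0 to 24, 15 rats had 0 and only 8 reached 10 counts (4 at UEF, 1 at Monash and 3 at UCLA). It passed the filter on low counts, but no difference between groups was detectable at this depth and no fold change is given for it. The remaining 6 members are described below.

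The members also differed in how much they varied between rats. The SD of log2 CPM over the 29 rats was 0.71 for miR-126a-3p and 0.57 for miR-126a-5p, at percentiles 66.6 and 37.8 of all miRNAs. It was 1.33 for miR-143-3p, 1.15 for miR-143-5p, 1.22 for miR-145-5p and 1.30 for miR-145-3p, at percentiles 92.7, 87.7, 89.7 and 91.7. The 4 smooth muscle strands were thus among the more variable miRNAs and the endothelial strands were not.

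The comparison between sites asked whether rats had the same plasma levels under harmonized protocols, which still differed in analgesic and other care. All 4 strands of miR-143 and miR-145 were lower at UCLA than at UEF and Monash, by 2.83 to 5.03 times, while both strands of miR-126a were at similar levels at the 3 sites. The F test of the 3 sites together (edgeR, quasi-likelihood, with condition in the model) passed for 4 of the 7 members, against 14.6% of the 751 miRNAs tested. Adjusted p was 0.000390 for miR-143-5p and miR-145-3p, 0.00101 for miR-145-5p and 0.0148 for miR-143-3p.

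miR-143-3p, the abundant strand, ranged from 4137 to 91563 CPM at UEF (median 10849.8), from 5149 to 33201 at Monash (median 15551) and from 1069 to 12899 at UCLA (median 3828). The sites overlapped, yet UCLA held the 5 lowest rats of the 29. UEF exceeded UCLA by 1.79 on the log2 scale (SE 0.47), or 3.46-fold (95% interval 1.79 to 6.70, edgeR adjusted p = 0.0128), and Monash exceeded UCLA by 1.90 (SE 0.50), or 3.73-fold (1.84 to 7.59, edgeR adjusted p = 0.0198).

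miR-145-5p, the guide strand of its hairpin and known for repressing smooth muscle dedifferentiation factors such as Klf4, followed the same order of UCLA against the others. Its CPM was 1220.0 to 12226 at UEF (median 3497), 642 to 4922 at Monash (median 2105) and 533 to 1767 at UCLA (median 895). The highest UCLA rat lay below the median of UEF and of Monash. The difference from UCLA was 2.16 at UEF (SE 0.40; 4.47-fold, 2.55 to 7.83, edgeR adjusted p = 0.000222) and 1.50 at Monash (SE 0.41; 2.83-fold, 1.58 to 5.07, edgeR adjusted p = 0.0240).

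The rarer strands were also lower at UCLA. miR-143-5p was 96.8 to 961 CPM at UEF (median 221), 63.5 to 328 at Monash (median 152) and 30.5 to 93.2 at UCLA (median 53.1). Every UEF rat was above every UCLA rat, a separation that 0.399% of the miRNAs tested had between these sites, and miR-143-5p was the only member with it. The fold was 4.40 between UEF and UCLA (2.64 to 7.36, edgeR adjusted p = 7.87e-05) and 3.07 between Monash and UCLA (1.80 to 5.25, edgeR adjusted p = 0.00937).

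miR-145-3p ranged from 28.2 to 572 CPM at UEF (median 97.2), from 27.6 to 115 at Monash (median 64.9) and from 6.30 to 48.0 at UCLA (median 22.0). It was 5.03-fold higher at UEF than at UCLA (2.88 to 8.80, edgeR adjusted p = 8.16e-05) and 2.84-fold higher at Monash (1.58 to 5.12, edgeR adjusted p = 0.0248). Thus 4 of 7 members were called higher at UEF than at UCLA, where 9.05% of all miRNAs were called and 5.06% in this direction. Against Monash, a comparison that shares the UCLA rats, 4 of 7 were called lower at UCLA, where 5.59% of all miRNAs were called and 3.2% in this direction. In both comparisons the 4 were the strands of miR-143 and miR-145. These share a transcript and varied together across rats, so that the 4 calls are not independent of each other. Without UEF sham rat 3 the log2 differences of UEF from UCLA were 1.38 for miR-143-3p, 1.83 for miR-143-5p, 1.93 for miR-145-5p and 2.00 for miR-145-3p, and all 4 passed.

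Between UEF and Monash, the neighbours at the upper end, 0 of 7 members differed past the threshold, against 9.45% of all miRNAs. The nearest was miR-145-3p at 0.82 on the log2 scale (95% interval 0.03 to 1.62, edgeR adjusted p = 0.168, and 0.0421 before adjustment). miR-145-5p differed by 0.66 (−0.14 to 1.45), miR-143-5p by 0.52 (−0.20 to 1.24) and miR-143-3p by −0.11 (−1.04 to 0.82). These intervals are wide enough to hold differences of up to about 3-fold.

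miR-126a-3p was 3527 to 22146 CPM at UEF (median 6239), 4653 to 11148 at Monash (median 8390.2) and 2595 to 11766 at UCLA (median 7693). miR-126a-5p was 1914.5 to 7039.9 CPM at UEF (median 2804), 2289 to 6389.7 at Monash (median 3489) and 1706 to 7562 at UCLA (median 3824). The 3 sites overlapped over most of their ranges for both strands. UEF minus UCLA was 0.12 for miR-126a-3p (95% interval −0.54 to 0.78, edgeR adjusted p = 0.914) and −0.21 for miR-126a-5p (−0.77 to 0.34, edgeR adjusted p = 0.768), and Monash minus UCLA was 0.05 (−0.68 to 0.77) and −0.15 (−0.77 to 0.48). The intervals leave out a difference of the size seen for the 4 smooth muscle strands between UEF and UCLA, and the sign of the miR-126a-3p value between UEF and UCLA turned under total-count scaling (−0.065).

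**Figure D1:**
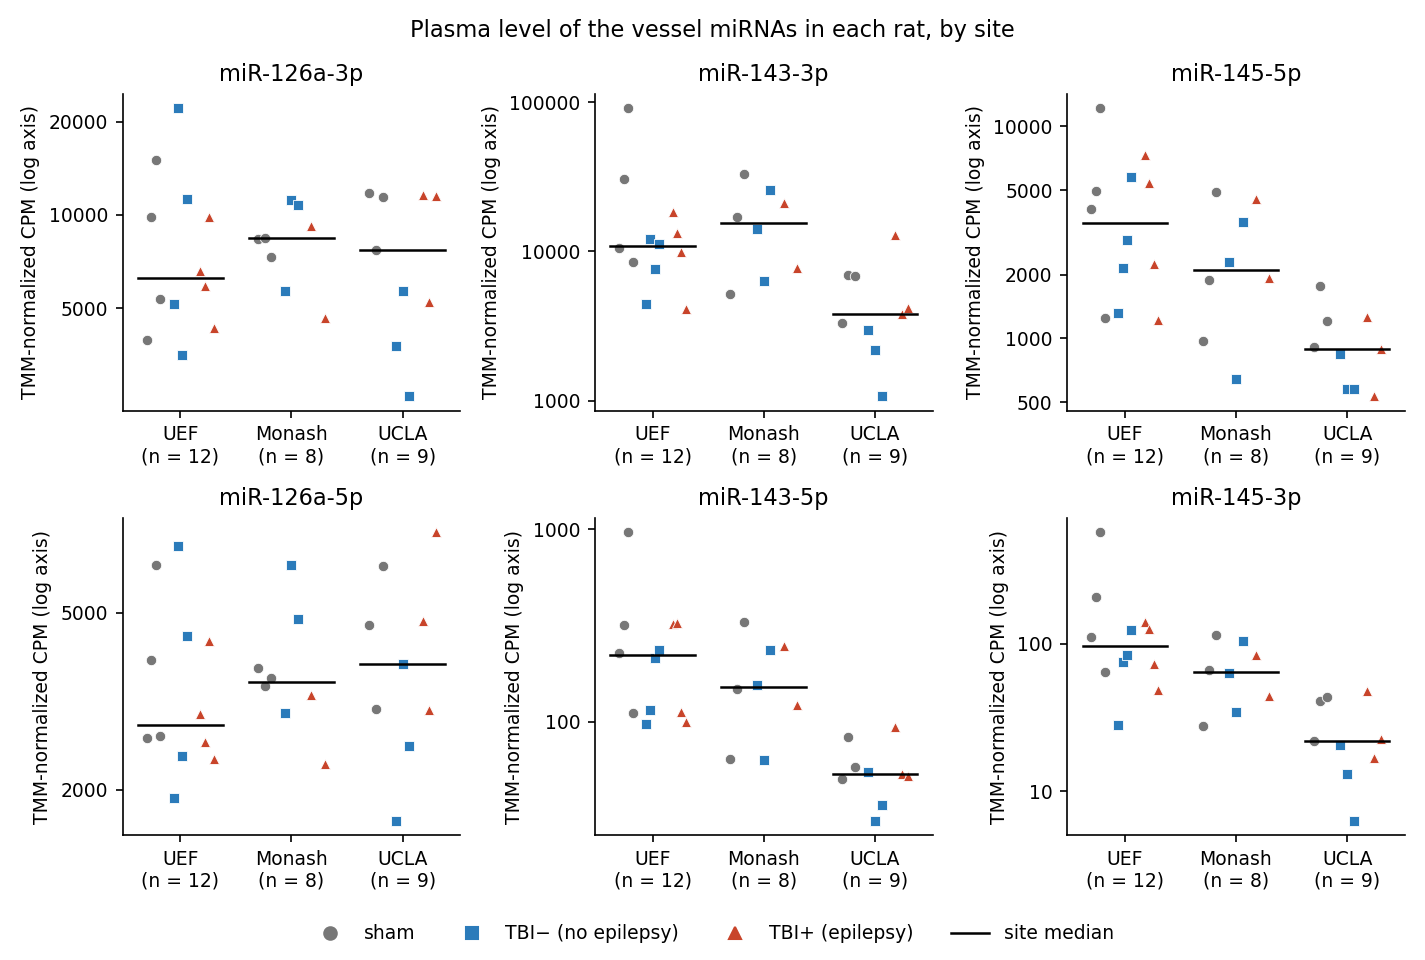
Level of the 6 members with counts in every rat, in CPM after TMM scaling on log axes (each panel has its own range), per rat by site; grey circles are sham, blue squares TBI− and red triangles TBI+, and the black line is the site median. The UCLA medians of miR-143-3p (3828), miR-143-5p (53.1), miR-145-5p (895) and miR-145-3p (22.0) lie below those of UEF and Monash, and the UCLA medians of miR-126a-3p (7693) and miR-126a-5p (3824) lie above those of UEF, with miR-126a-3p below its Monash median (8390.2).

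The calls against UCLA depended on which rats entered. In sham rats alone, where 10 rats remained, miR-143-5p (2.63, edgeR adjusted p = 0.0406) and miR-145-3p (2.70, edgeR adjusted p = 0.0434) were called between UEF and UCLA, miR-143-3p (2.59, edgeR adjusted p = 0.111) and miR-145-5p (2.08, edgeR adjusted p = 0.0901) were not, and 0 members were called between Monash and UCLA. Over all miRNAs sham rats alone gave 38 calls of 741 between UEF and UCLA and 22 of 741 between Monash and UCLA. In the TBI rats alone 3 members were called between UEF and UCLA, all but miR-143-3p (1.35, edgeR adjusted p = 0.0715), and 4 between Monash and UCLA. Over all miRNAs the TBI rats gave 38 calls of 750 and 23 of 750 in these comparisons. With the ratio of the red cell miR-451-5p to miR-23a-3p as a covariate the 4 calls between UEF and UCLA held. Those between Monash and UCLA fell to 1 member, where 23 of 754 miRNAs were called. It was miR-143-5p (1.38, edgeR adjusted p = 0.0374). The other 3 missed the threshold with differences of 1.73 for miR-143-3p (edgeR adjusted p = 0.0630), 1.30 for miR-145-3p (edgeR adjusted p = 0.0804) and 1.27 for miR-145-5p (edgeR adjusted p = 0.0818).

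The within-rat ratio of a smooth muscle strand to miR-126a-3p needs no scaling between libraries, since both counts come from the same tube. miR-143-3p had more counts than miR-126a-3p in 8 of 12 rats at UEF, 6 of 8 at Monash and 1 of 9 at UCLA. The mean log2 ratio of the 12 UEF rats was 0.75 ± 0.99 (SD), that of the 8 Monash rats 0.77 ± 1.03 and that of the 9 UCLA rats −0.83 ± 0.68. UEF exceeded UCLA by 1.58 (exact two-sided permutation test, p = 0.000619, adjusted p = 0.0149 over 48 ratio tests), and Monash exceeded UCLA by 1.60 (exact permutation p = 0.00255, adjusted p = 0.0408), a call that was lost in 13 of 29 cases when a single rat was left out (highest adjusted permutation p = 0.0867).

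For miR-145-5p to miR-126a-3p the mean log2 ratio was −1.15 ± 1.11 in the 12 UEF rats, −1.90 ± 1.18 in the 8 from Monash and −2.98 ± 0.65 in the 9 from UCLA. UEF exceeded UCLA by 1.83 (exact permutation p = 0.000449, adjusted p = 0.0149), whereas the difference of 1.09 between Monash and UCLA missed the threshold (exact permutation p = 0.0325, adjusted p = 0.260). Without UEF sham rat 3 both ratios still differed between UEF and UCLA, by 1.41 and 1.76 (exact permutation test, adjusted p = 0.0260 for each).

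**Figure D2:**
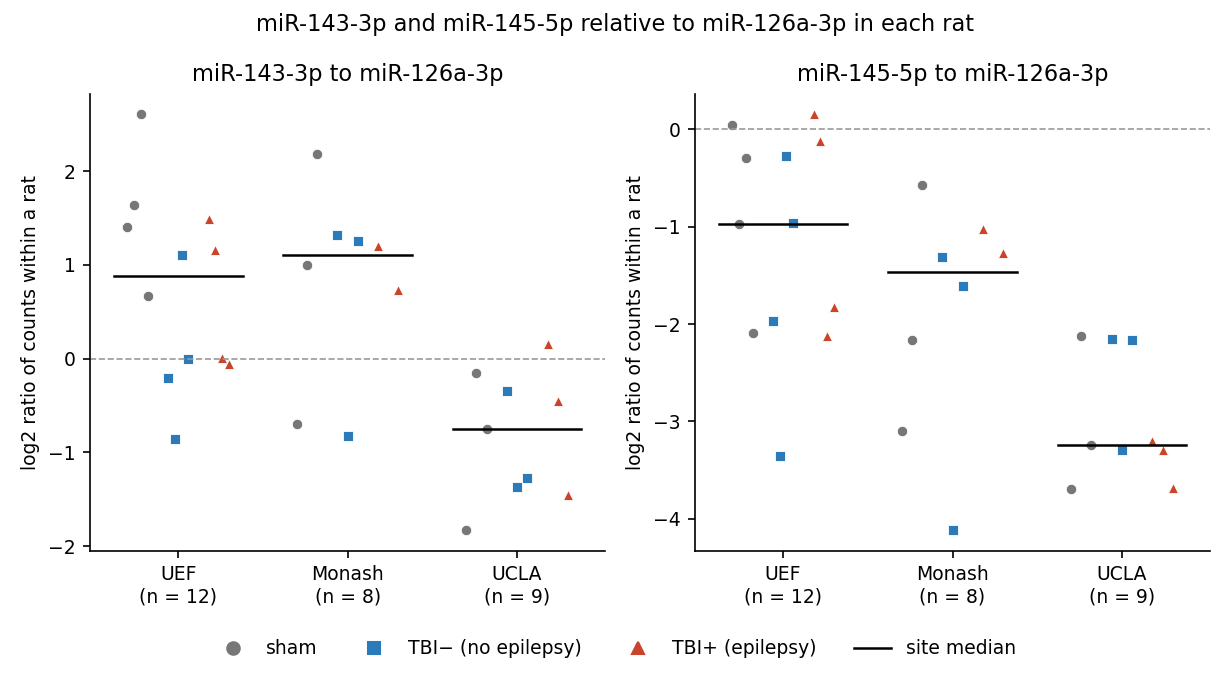
Log2 ratio of the counts of miR-143-3p (left) and miR-145-5p (right) to those of miR-126a-3p within each rat, by site; grey circles are sham, blue squares TBI−, red triangles TBI+ and black lines site medians. At UCLA 1 of 9 rats had more miR-143-3p than miR-126a-3p, against 8 of 12 at UEF and 6 of 8 at Monash.

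The balance of the strands and of the clustered hairpins was compared in the same way. None of the arm ratios differed between sites past the threshold, and neither did the ratio of miR-143-3p to miR-145-5p. The nearest were between UEF and Monash, where the log2 ratio of miR-143-3p to miR-145-5p was 1.90 ± 0.66 (n = 12) against 2.67 ± 0.45 (n = 8, exact permutation p = 0.0108, adjusted p = 0.116), and that of miR-143-3p to miR-143-5p was 5.91 ± 0.57 against 6.52 ± 0.27 (exact permutation p = 0.0121, adjusted p = 0.116).

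Plasma is a mixture, so that fewer cells releasing a miRNA and less of it released by each cell cannot be told apart. Site also went with the source of the rats, their chow and caging, the analgesic and the saline given. It went as well with a medicated chow given after injury at UCLA and with the shipping of the Monash and UCLA plasma. These cannot be told apart from site here. Lists of miRNAs known from vessel and other cell types were therefore read beside the members. Every listed miRNA with a row had counts in all 29 rats.

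Of 10 other miRNAs of smooth muscle and mesenchymal wall cells, 1 was called between UEF and UCLA, miR-199a-5p (0.92 higher at UEF, edgeR adjusted p = 0.0315), and 0 between Monash and UCLA. All 10 had a positive difference between UEF and UCLA, with a median of 0.53 on the log2 scale against 0.07 over all miRNAs, which is smaller than the difference of any of the 4 members. Their summed CPM overlapped between sites (14057 to 83380 at UEF, 15616 to 32876 at Monash, 11732 to 32660 at UCLA). Of 8 other endothelial miRNAs 1 was called in each comparison with UCLA, miR-210-3p, known as a hypoxia-induced miRNA, which was lower by 0.85 at UEF and by 0.95 at Monash, and the list medians were 0.26 and −0.02.

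Blood cell miRNAs did not differ past the threshold from UCLA. Of 6 platelet and white cell miRNAs, which include miR-223-3p, 0 were called between UEF and UCLA or between Monash and UCLA, and 2 were lower at UEF than at Monash. Without regard to calls, 5 of the 6 were lower at UEF than at UCLA (median −0.52 against 0.07 over all miRNAs). Between Monash and UCLA 4 were higher at Monash and 2 lower (median 0.25). Of 5 red cell miRNAs 0 were called between any pair of sites, with a summed CPM of 128688 to 632835 at UEF, 186567 to 459601 at Monash and 212531 to 568594 at UCLA. All 5 were lower at UEF than at UCLA (median −0.25), and 3 of 5 were lower at Monash than at UCLA (median −0.11).

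Some liver and striated muscle miRNAs were also called lower at UCLA. All 3 liver miRNAs were called higher at UEF than at UCLA, led by miR-122-5p at 3.49 on the log2 scale, and 1 of 3 was called higher at Monash. Their summed CPM was 30683 to 1737210 at UEF, 23556 to 143186 at Monash and 9948 to 26738 at UCLA, so that every UCLA rat lay below every UEF rat and the upper UCLA values reached the lower end of Monash. Of 4 measured striated muscle miRNAs miR-206-3p was higher at UEF than at UCLA (3.00), and miR-1-3p (4.52) and miR-206-3p (4.29) were higher at Monash, where the other 2 had negative differences (lowest −0.32), with summed CPM of 342 to 20932 at UEF, 443 to 33107 at Monash and 253 to 747 at UCLA. The part of these cell types in the lower miR-143 and miR-145 at UCLA was not tested.

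**Figure D3:**
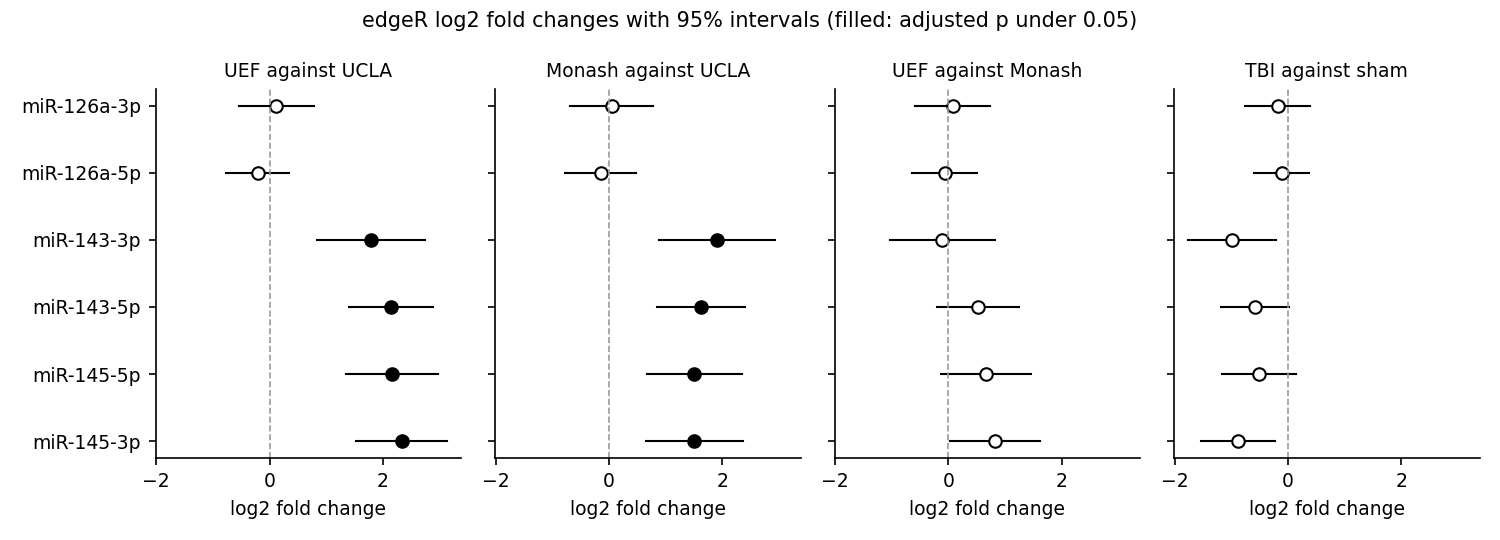
Log2 fold change of the 6 members from edgeR with 95% intervals in 4 comparisons (UEF against UCLA, Monash against UCLA, UEF against Monash, TBI against sham); filled circles have an adjusted p under 0.05. The 4 strands of miR-143 and miR-145 are filled in both comparisons with UCLA, from 1.50 to 2.33, and no member is filled in the others.

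The comparison of injured with sham rats asked whether the vessel miRNAs of plasma differed 48 h after TBI. None of the 7 members passed the threshold in edgeR or in DESeq2, against 1.2% of all miRNAs in edgeR and 25 of 751 in DESeq2. Before adjustment 2 members had p under 0.05 in edgeR. All 6 measured differences were negative, and those of miR-143-3p and miR-145-3p were the largest.

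miR-143-3p was 3309 to 91563 CPM in the 10 sham rats (median 9465) and 1069 to 25714.5 in the 19 TBI rats (median 7750.5). The groups overlapped, but 3 sham rats (UEF sham rats 2 and 3 and Monash sham rat 3) lay above every TBI rat. The site-adjusted difference was −0.99 on the log2 scale (SE 0.38, 95% interval −1.76 to −0.21, edgeR adjusted p = 0.250, and 0.0146 before adjustment). miR-145-3p was 22.0 to 572 CPM in sham (median 65.5) and 6.30 to 140 in TBI rats (median 48.8), a difference of −0.88 (SE 0.32, −1.53 to −0.24, edgeR adjusted p = 0.208, and 0.00913 before adjustment).

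The difference was −0.58 for miR-143-5p (−1.19 to 0.02, edgeR adjusted p = 0.471) and −0.51 for miR-145-5p (−1.17 to 0.14, edgeR adjusted p = 0.624), and without UEF sham rat 3 these were −0.20 and −0.25 (edgeR adjusted p = 0.926 for each). For the endothelial strands it was −0.18 for miR-126a-3p (−0.75 to 0.39, edgeR adjusted p = 0.888) and −0.11 for miR-126a-5p (−0.60 to 0.38, edgeR adjusted p = 0.921). miR-126a-3p ran from 3950 to 15018 CPM in sham (median 8390.2) and from 2595 to 22146 in TBI rats (median 5906), with the whole sham range inside that of the TBI rats.

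The largest differences within a site were those of miR-143-3p and miR-145-3p at UEF. The effect of TBI did not differ between sites past the threshold for any member (interaction test, lowest edgeR adjusted p = 0.490, against 0.932% of miRNAs called). At UEF miR-143-3p was 10483, 30466, 91563 and 8446 CPM in the sham rats, 4460.3, 12185, 7568 and 11216 in the TBI− rats and 18487, 13237, 9909 and 4137 in the TBI+ rats. A pair of sham rats stood above all 8 injured rats and the other pair lay within their range.

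Within UEF the difference was −1.80 for miR-143-3p (SE 0.57, edgeR adjusted p = 0.0712) and −1.45 for miR-145-3p (SE 0.47, edgeR adjusted p = 0.0806), so that 0 members were called, against 3.86% of all miRNAs. DESeq2, which called 49 of 751 miRNAs within UEF, called both, at −1.88 (DESeq2 adjusted p = 0.0209) and −1.53 (DESeq2 adjusted p = 0.0247). Without UEF sham rat 3 they were −0.68 (edgeR adjusted p = 0.851) and −0.53 (edgeR adjusted p = 0.862), and scaling by total counts, which moved the median of all miRNAs from 0.01 to 0.43, gave −0.90 (edgeR adjusted p = 0.255) and −0.61 (edgeR adjusted p = 0.421).

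At Monash miR-143-3p was 5149, 16940 and 33201 CPM in sham, 14163, 6307 and 25714.5 in TBI− and 21268 and 7750.5 in TBI+ rats, a difference of −0.29 (−1.72 to 1.14). At UCLA it was 3309, 6923 and 6825 in sham, 2964, 2186 and 1069 in TBI− and 12899, 3828 and 4200.2 in TBI+ rats, a difference of −0.33 (−1.71 to 1.05). Sham and injured rats overlapped at both sites, and 0 members were called at either, against 0.0% of all miRNAs at Monash and 0.266% at UCLA. Scaling by total counts moved the median of all miRNAs within UCLA from 0.02 to −0.47, and 8 of the 9 miRNAs then called there were lower after TBI. As a share of all miRNA counts miR-126a-3p was 1.10 to 1.49% in the UCLA sham rats and 0.304 to 0.830% in the injured rats. Its CPM values overlapped, and how many other miRNAs were apart in their share of counts was not counted. Under total counts the difference of miR-126a-3p at UCLA was −1.22 (edgeR adjusted p = 0.0711) and its interaction test had an edgeR adjusted p of 0.0687, against 0.790 with TMM. The other members were also lower at UCLA under total counts, so that this was not particular to miR-126a-3p. The differences were −1.40 for miR-145-3p (edgeR adjusted p = 0.111), −1.34 for miR-145-5p (edgeR adjusted p = 0.200), −1.03 for miR-143-3p, −0.85 for miR-143-5p and −0.83 for miR-126a-5p. Over all sites without UEF sham rat 3 the differences between TBI and sham were −0.48 for miR-143-3p (edgeR adjusted p = 0.744) and −0.48 for miR-145-3p (edgeR adjusted p = 0.615).

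Over all sites 2 of 3 liver miRNAs were called lower after TBI, and 3 of 3 within UEF. The summed liver CPM was 15502 to 1737210 in sham (median 136006) and 9948 to 271734 in TBI rats (median 43017), but within UCLA the medians were 19034 and 21115 and 2 of 3 had a positive difference, and miR-194-5p was called in the interaction test (edgeR adjusted p = 0.0449). Without UEF sham rat 3, which held the highest liver sum, the interaction test called 0 miRNAs. The other liver calls are not given without that rat. All 5 red cell miRNAs had a positive difference over all sites (median 0.62, 0 called) and within UEF and UCLA, and all 5 a negative one within Monash (median −0.37, 0 called). Of the 10 other wall cell miRNAs 9 had a negative difference over all sites (median −0.31 against 0.03 over all miRNAs, 0 called), 9 within UEF, 7 within Monash and 5 within UCLA. The part of these cell types in the values of miR-143 and miR-145 was not tested. None of the within-rat ratios differed between TBI and sham past the threshold, over all sites or within UEF. The ratio test over all sites was not adjusted for site. Within UEF the nearest was the ratio of miR-145-5p to miR-145-3p (0.60, exact permutation p = 0.0404, adjusted p = 0.267). That of miR-143-3p to miR-126a-3p followed (−1.25, exact permutation p = 0.0444, adjusted p = 0.267).

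Within the injured rats, TBI+ and TBI− were compared to ask whether the vessel miRNAs at 48 h differed with later epilepsy. None of the 7 members did, in a comparison where 0.0% of all miRNAs were called, 15 miRNAs had p under 0.05 before adjustment, none of them a member, and DESeq2 called 0 members. TBI+ minus TBI− was 0.69 for miR-143-3p (95% interval −0.26 to 1.64), 0.44 for miR-143-5p (−0.28 to 1.16), 0.45 for miR-145-5p (−0.33 to 1.23) and 0.42 for miR-145-3p (−0.37 to 1.21), with an edgeR adjusted p of 0.998 for each. For miR-126a-3p it was −0.07 (−0.77 to 0.62) and for miR-126a-5p −0.08 (−0.67 to 0.50). A difference of up to about 3-fold in miR-143-3p lies within its interval.

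Set against the shared sham rats, the TBI− values were the lower of the pair for miR-143 and miR-145. TBI− minus sham was −1.33 for miR-143-3p (SE 0.45, edgeR adjusted p = 0.237) and −1.09 for miR-145-3p (SE 0.38, edgeR adjusted p = 0.240), with 0 members called against 0.133% of all miRNAs. DESeq2, which called 20 of 751 miRNAs in this comparison, called both (DESeq2 adjusted p = 0.0474 each). Without UEF sham rat 3 the edgeR values were −0.82 (edgeR adjusted p = 0.444) and −0.69 (edgeR adjusted p = 0.445). TBI+ minus sham was −0.64 for miR-143-3p (edgeR adjusted p = 0.839) and −0.67 for miR-145-3p (edgeR adjusted p = 0.713), with 0 members called against 0.533%, and without that rat they were −0.14 (edgeR adjusted p = 0.986) and −0.27 (edgeR adjusted p = 0.972).

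Across the 29 rats the strands of each hairpin varied together, and so did miR-143 and miR-145. All CPM values of a rat share its library and scaling factor, and 10 pairs were tested. Pearson's r of log2 CPM was 0.877 for the strands of miR-126a (Spearman's rho 0.920), 0.902 for those of miR-143 (0.902) and 0.931 for those of miR-145 (0.954), each with an adjusted permutation p of 2.5e-05, which follows from the smallest p that the 100000 resamples could give. Within UEF, Monash and UCLA r was 0.945, 0.880 and 0.844 for the miR-126a strands, 0.882, 0.965 and 0.881 for those of miR-143 and 0.904, 0.916 and 0.860 for those of miR-145, and without the 2 rats farthest from the median the pooled values were 0.888, 0.866 and 0.915, so that the relations held within every site. miR-143-3p and miR-145-5p had r = 0.860 (rho 0.869; adjusted permutation p = 2.5e-05), 0.822 without the 2 rats farthest from the median and 0.838 at UEF, 0.904 at Monash and 0.768 at UCLA.

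Coefficients between the endothelial and smooth muscle strands were lower, although the difference between coefficients was not tested. miR-126a-3p and miR-143-3p had r = 0.493 (adjusted permutation p = 0.0142) and rho 0.369 (adjusted permutation p = 0.0708), with r = 0.401 without the 2 farthest rats and 0.580 at UEF, 0.123 at Monash and 0.758 at UCLA. Under total-count scaling r was 0.243 (adjusted permutation p = 0.258), so that the relation did not hold under that scaling. After site and condition were fitted r was 0.541 with TMM (adjusted permutation p = 0.00375) and 0.188 under total counts. For miR-126a-3p and miR-145-5p r was 0.246 (adjusted permutation p = 0.243) and rho 0.182 (adjusted permutation p = 0.427), with r = 0.165 without the 2 farthest rats and 0.347, −0.147 and 0.604 within the sites.

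The blood cell miRNAs were set against the members in the same family of tests. miR-126a-3p had r = 0.416 with miR-223-3p of platelets and white cells (adjusted permutation p = 0.0362; rho 0.393, adjusted permutation p = 0.0616), with 0.332 without the 2 farthest rats and 0.463 at UEF, 0.750 at Monash and 0.302 at UCLA. It had r = 0.447 with miR-451-5p of red cells (adjusted permutation p = 0.0240; rho 0.396, adjusted permutation p = 0.0616), but 0.238 without the 2 farthest rats and 0.683, 0.302 and 0.191 within the sites. Neither passed under total-count scaling. After site and condition were fitted, miR-126a-3p had r = 0.539 with miR-223-3p (adjusted permutation p = 0.00376) and 0.589 with miR-451-5p (adjusted permutation p = 0.00146). Under total counts these fitted values were 0.394 and 0.364. With miR-451-5p, miR-143-3p had r = 0.061 (adjusted permutation p = 0.837) and rho 0.068 (adjusted permutation p = 0.803), with r = 0.188, 0.024 and 0.228 within the sites. miR-145-5p had r = −0.034 (adjusted permutation p = 0.860) and a rho near zero, with r = 0.217, −0.257 and −0.060 within the sites. After site and condition were fitted, r with miR-451-5p was 0.368 for miR-143-3p (adjusted permutation p = 0.0615) and 0.155 for miR-145-5p (adjusted permutation p = 0.424). Under total counts these were −0.143 and −0.242.

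**Figure D4:**
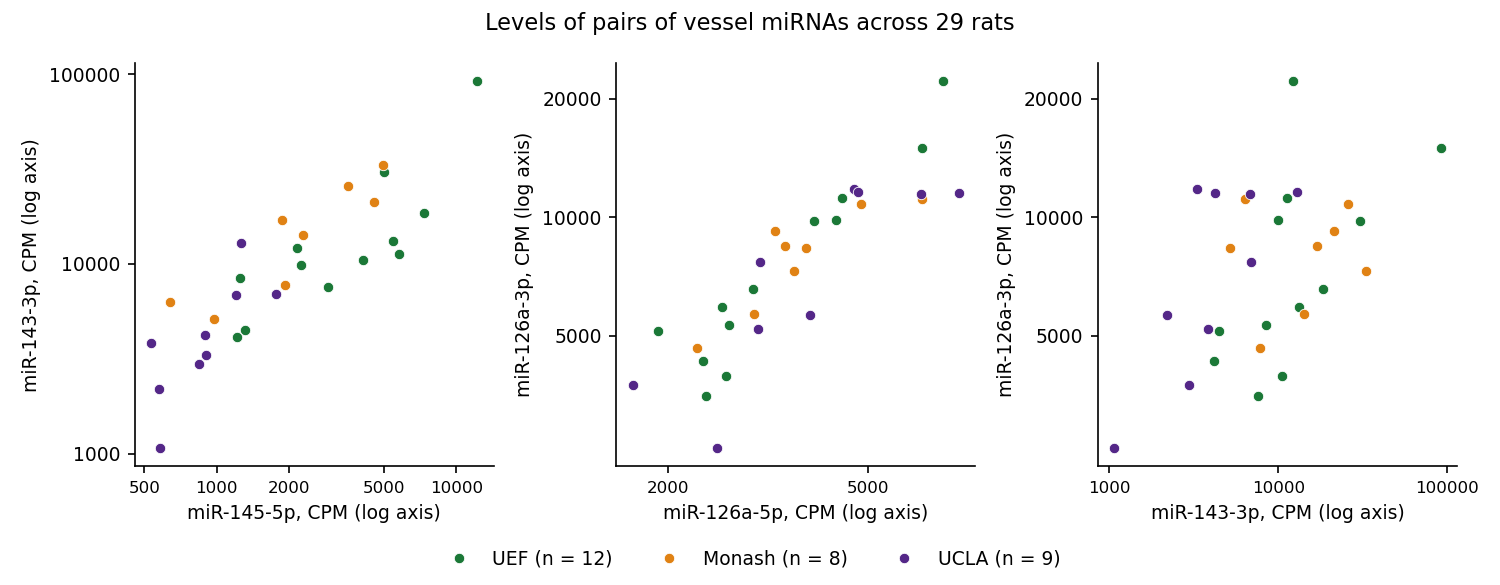
CPM on log axes of 3 pairs of members in the 29 rats, coloured by site: miR-145-5p against miR-143-3p, miR-126a-5p against miR-126a-3p, and miR-143-3p against miR-126a-3p. The first pairs lie along a line (r of log2 CPM 0.860 and 0.877) and the last is more scattered (r of log2 CPM 0.493).

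The miRNAs whose pattern was most like each family were ranked by Spearman's rho of log2 CPM over the 29 rats after site and condition were fitted, as a description. For miR-126a-3p the nearest of 750 miRNAs were miR-100-5p (0.92), miR-126a-5p (0.91), miR-10b-5p (0.89), miR-199a-5p (0.85) and miR-10a-5p (0.85). For miR-143-3p they were miR-145-3p (0.94), miR-676 (0.87), let-7c-5p (0.86), let-7b-5p (0.85) and miR-3596a (0.83), with miR-143-5p at rank 6 and miR-145-5p at rank 8. For miR-145-5p they were miR-143-5p (0.92), miR-145-3p (0.86), miR-676 (0.86), miR-143-3p (0.81) and miR-674-5p (0.71). miR-143-3p came at rank 77 for miR-126a-3p (0.53), so that each family had its own strands near the top of its order. The order did not follow the cell type lists. Near miR-126a-3p, miR-100-5p and miR-199a-5p were on the list of smooth muscle and mesenchymal wall cells, and miR-10a-5p was on the endothelial list. No miRNA of that wall cell list was among the 5 nearest to miR-143-3p or to miR-145-5p.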

How the data were processed

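The deposited count table gives whole-number counts of 754 miRNAs in 29 plasma libraries. The authors had libraries prepared with the QIAseq miRNA kit, and a service pipeline trimmed reads with cutadapt, aligned them with Bowtie to Rnor_6.0 and annotated them with miRBase; whether reads sharing a UMI were merged is not given in the sources used here. Groups, sites and replicate numbers came from the labels.

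Counts were analysed with edgeR 4.0.16 (R 4.3.3; quasi-likelihood F test, robust, filterByExpr with a minimum count of 10, TMM), with site and condition (sham, TBIN, TBIE) in the model. TBI against sham was the mean of TBIN and TBIE minus sham. P-values were adjusted by Benjamini-Hochberg over the 751 miRNAs that passed the filter, with a threshold of 0.05. A further fit with a site by injury interaction gave the effects within sites. Within-rat ratios were log2 of counts plus 0.5 and were compared with permutation tests (scipy 1.17.1). log2 CPM for correlations used a prior count of 2. The test was checked on simulated data with 200 changed miRNAs.

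All members were named, listed miRNAs where a member's result turned on them, and the 5 most alike for likeness. The families and lists were chosen with earlier results of these data known, and the rows of each family by name. Alternatives were DESeq2 1.42.0, other scalings, filters, covariates, thinned counts, and left-out rats or sites; fits on sham or TBI rats alone were added after seeing the data. Low counts limit precision most for miR-126b, and miR-145-3p also had low counts at UCLA (16 in TBI− rat 3). The spread between rats limits the other members.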

Additional observations from a re-analysis of the deposited data

How the results depend on the processing

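Leaving out any of the 29 rats in turn did not change the number of members called between sites, between conditions over all sites or in the interaction test, except for Monash against UCLA, where it ranged from 2 to 4. Within single sites only UEF sham rat 3 was left out. It was 2 without Monash sham rat 3 and without Monash TBI+ rat 1, where miR-145-5p (edgeR adjusted p = 0.0729 and 0.0642) and miR-145-3p (0.0555 and 0.0583) were lost. miR-145-3p was also lost without Monash TBI− rat 1 (0.0502), UCLA TBI− rat 2 (0.0529) or UCLA TBI− rat 3 (0.0534). The replicate numbers did not pair the rats (median correlation of same-numbered deviations −0.00471 over 103 pairs), and with them as a replicate block 4 members were called for the 3 sites together, for UEF against UCLA and for Monash against UCLA, and 0 elsewhere, so that the block changed no call of a member. Over all miRNAs the block did move the number called. It was 30 of 754 for UEF against Monash (71 of 751 as reported), 5 of 754 for TBI against sham (9) and 0 for the interaction (7).

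The number of members called moved to 2 with DESeq2 for TBI− against sham, to 1 (3 sites together), 2 (UEF against UCLA) and 0 (Monash against UCLA) in sham rats alone, and to 1 for Monash against UCLA with the red cell ratio. Over all miRNAs DESeq2 called 20 of 751 for TBI− against sham, and sham rats alone gave 60 of 741 for the 3 sites together. In sham rats alone adjusted p for the 3 sites together was 0.139 for miR-143-3p, 0.0596 for miR-143-5p and 0.103 for miR-145-5p (edgeR), and without condition in the model miR-145-3p missed the threshold between Monash and UCLA (1.36, edgeR adjusted p = 0.0702). The cause of these changes was not tested; sham rats alone are also fewer rats. The calls of the 4 strands against UCLA held under every scaling tried. Over all miRNAs the number called ranged from 0 to 25 for TBI against sham (9 as reported), from 0 to 20 for TBI− against sham (1), from 0 to 12 for TBI+ against sham (4), from 38 to 157 for the 3 sites (110), from 0 to 109 for UEF against Monash (71), from 38 to 88 for UEF against UCLA (68), from 22 to 59 for Monash against UCLA (42) and from 0 to 17 for the interaction (7). Of the calls between UEF and UCLA 55.9% were higher at UEF, and 43.1% under total counts.

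Signs that turned belonged to differences that were not called. For miR-126a-3p these were 0.029 (TBI against sham, UCLA left out), −0.19 (UEF against Monash, total counts), −0.021 (miR-28-3p scaling), −0.030 (red cell ratio), −0.065 (UEF against UCLA, total counts), −0.31 (sham alone) and −0.36 (Monash against UCLA, sham alone). For miR-126a-5p they were 0.087 (UEF against Monash, sham alone) and 0.035 (Monash against UCLA, TBI alone). For miR-143-3p they were 0.090 (TBI+ against sham, UEF left out) and, for UEF against Monash, 0.18 (no covariate), 0.16 (replicate block) and 0.89 (sham alone). With single rats left out the log2 fold change ranged from −0.18 to 0.0080 for miR-126a-5p (TBI against sham), from −0.24 to 0.16, −0.26 to 0.090 and −0.50 to 0.14 for miR-126a-3p, miR-126a-5p and miR-143-3p (UEF against Monash), from −0.097 to 0.20 for miR-126a-3p (UEF against UCLA), and from −0.11 to 0.16 and −0.28 to 0.026 for miR-126a-3p and miR-126a-5p (Monash against UCLA).

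The ratio of miR-143-3p to miR-126a-3p between Monash and UCLA, 1.60, had an adjusted permutation p of 0.0765 with UEF left out of the family, and with single rats left out it ranged from 1.40 to 1.83 and missed the threshold in 13 of 29 cases; that of miR-145-5p ranged from 0.90 to 1.40 and passed in 1. The ratios that turned were miR-145-5p to miR-126a-3p (0.018 for TBI against sham and −0.051 for TBI+ against TBI−, UEF left out) and, with UCLA left out, miR-126a-3p to miR-126a-5p (0.047, TBI against sham), miR-143-3p to miR-143-5p (−0.22), miR-145-5p to miR-145-3p (0.25) and miR-143-3p to miR-145-5p (−0.41), the last 3 for TBI+ against TBI−. With single rats left out they ranged from −0.37 to 0.050 (miR-145-5p to miR-126a-3p, TBI against sham), −0.19 to 0.062 (miR-145-5p to miR-145-3p) and −0.022 to 0.28 (miR-143-3p to miR-145-5p) for TBI+ against TBI−, and −0.030 to 0.072 (miR-126a strands) and −0.26 to 0.17 (miR-143-3p to miR-126a-3p) for UEF against Monash. Under total counts the correlation of miR-126a-3p was 0.243 with miR-143-3p, 0.342 with miR-223-3p and 0.220 with miR-451-5p, none past the threshold, and that of miR-143-3p with miR-451-5p was −0.327.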
